A study of Mus musculus with 14 samples.

Results

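The Kruppel-like factors are zinc finger transcription factors that bind GC-rich and CACCC sequences and turn genes on or off according to the cofactors they recruit. The 10 described here (Klf2, Klf3, Klf4, Klf6, Klf7, Klf9, Klf10, Klf11, Klf12 and Klf13) were taken by symbol from the 55450 gene identifiers counted in 14 RNA-seq libraries of mouse long-term hematopoietic stem cells (LT-HSCs), the cells of the bone marrow from which every blood lineage is renewed, and all 10 were found. All cells came from female C57BL/6 donors older than 24 months and were lineage negative, Sca-1+, c-Kit+, CD48- and CD150+. The post-transplant Selp high-derived group (3 libraries) and Selp low-derived group (3 libraries) held CD45.2+ donor cells from lethally irradiated recipients that were 10 to 16 weeks old when 1000 cells of one or the other input were given, and these cells were sorted 16 weeks later without a gate on P-selectin. The pre-transplant Selp high group (4 libraries) and Selp low group (4 libraries) were cells with high or low surface P-selectin, an adhesion receptor encoded by Selp, sorted directly from 4 donors. Each library was made from 5000 cells. Host, irradiation, age of the host, time since transplantation and the CD45.2 gate all differed between post- and pre-transplant libraries and cannot be told apart, and the sources do not say whether each post-transplant library came from its own recipient.

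Family members act in different ways. Klf2, Klf4, Klf6 and Klf7 are known mainly as activators that work with the acetyltransferases Ep300 and Crebbp, Klf3 and Klf12 repress through the corepressor CtBP, and Klf9, Klf10, Klf11 and Klf13 repress through Sin3a. Klf2 keeps naive T lymphocytes quiescent and is switched on by blood flow in endothelium, and Klf4 is known from reprogramming to pluripotency and from monocyte differentiation. Klf2, Klf4, Klf6 and Klf10 are known as genes that respond early to stimuli in other cell types.

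The promoters of the 4 members with the lowest post-transplant levels relative to pre-transplant levels (Klf2, Klf4, Klf6 and Klf9) are shown so that their common and their different elements can be read. Each is the 250 bases before the gene's RefSeq start on GRCm38.p6, printed 5′ to 3′ on the gene's own strand, and capitals mark GC boxes (GGGCGG on either strand, hence also CCGCCC) and a MEF2-type palindrome, CTAAA followed by its reverse complement TTTAG. Klf2 lies at chr8:72318812-72319061 (plus strand), Klf4 at chr4:55532476-55532725 (minus strand), Klf6 at chr13:5861239-5861488 (plus strand) and Klf9 at chr19:23140976-23141225 (plus strand).
Klf2: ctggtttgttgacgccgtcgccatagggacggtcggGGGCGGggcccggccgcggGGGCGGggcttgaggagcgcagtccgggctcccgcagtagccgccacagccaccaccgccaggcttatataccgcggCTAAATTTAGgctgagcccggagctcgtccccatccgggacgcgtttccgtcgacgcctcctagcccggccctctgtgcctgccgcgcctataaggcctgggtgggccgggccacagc
Klf4: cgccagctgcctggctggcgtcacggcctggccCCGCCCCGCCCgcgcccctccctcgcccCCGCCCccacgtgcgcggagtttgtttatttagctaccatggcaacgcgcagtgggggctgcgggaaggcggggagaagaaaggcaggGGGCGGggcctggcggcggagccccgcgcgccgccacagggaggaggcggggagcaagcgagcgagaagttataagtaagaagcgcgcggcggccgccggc
Klf6: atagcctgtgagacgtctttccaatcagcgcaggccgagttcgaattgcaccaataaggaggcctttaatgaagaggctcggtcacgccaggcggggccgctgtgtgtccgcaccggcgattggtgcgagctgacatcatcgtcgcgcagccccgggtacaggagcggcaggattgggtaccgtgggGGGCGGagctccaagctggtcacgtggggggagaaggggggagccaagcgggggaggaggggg
Klf9: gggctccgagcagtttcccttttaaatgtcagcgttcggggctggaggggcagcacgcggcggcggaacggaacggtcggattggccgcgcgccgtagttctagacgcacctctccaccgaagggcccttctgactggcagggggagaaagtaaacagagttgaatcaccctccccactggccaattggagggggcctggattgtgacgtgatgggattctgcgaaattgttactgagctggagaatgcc
The palindrome was the one element found in a single member. It begins 118 bases before the start of Klf2 and was present in 13 of 32851 RefSeq promoter windows of this length (0.0396%), a motif searched after the Klf2 window had been read. MEF2 factors, which bind AT-rich elements of this kind, are known to drive Klf2 in endothelium. GC boxes were common: 3 of these 4 windows held one, as did 4 of the 5 windows of members not called between stages, against 32.7% of all windows. The shorter motifs CACCC (52% of all windows), TGACGT (6.47%) and CACGTG (6.02%), searched on both strands and with no overlap rule between motifs, did not part the sets, with matches in 2, 1 and 2 of the 4 windows and in 4, 1 and 1 of the 5. A match says only that the letters are present. RefSeq windows were found for 9 of the 10 members.

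The libraries held 22374794 to 38216775 reads assigned to genes, and 16878 genes, all 10 members among them, passed the expression filter. Principal component 1 (33.3% of the variance) parted the stages. Same-numbered pre-transplant libraries were taken to share a donor mouse because their deviations from group means correlated. The labels do not state this. Both pre-transplant libraries numbered 4 (mouse 4) and Selp low-derived replicate 2 lay at one end of component 2 (15.1%). Selp high-derived replicate 1 stood apart on component 4. These 4 libraries are left out beside the main results below. LT-HSC markers were present throughout (Kit 947 to 1480 CPM after and 1011 to 1755 CPM before transplantation). Cd48, which the gate excludes, was at 5.67 to 15.3 CPM after and 1.03 to 20.97 CPM before (log2 fold change 0.58, adjusted p = 0.4637). It was called higher with the donor mouse as a replicate block (adjusted p = 0.002295), a block that pairs nothing across the stages. Cd48 was also called higher in edgeR without both mouse 4 libraries (log2 fold change 1.66, adjusted p = 0.001985). The same held without all 4 libraries that stood apart (log2 fold change 1.59, adjusted p = 0.009243). The summed CPM of 10 neutrophil markers was 12310 in Selp low-derived replicate 2 and 19490 and 14790 in the Selp high and Selp low libraries of mouse 4, against 407 to 5757 in the other 11. No marker list of another cell type had a gene at 0 in every library.

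In LT-HSCs recovered after transplantation, 5 of the 10 members were lower than in the cells sorted before it, and none was higher. Klf2 showed the largest difference among them, followed by Klf4, Klf6, Klf9 and Klf10, while Klf3, Klf7 and Klf13 had fitted differences under 0.13 in size on the log2 scale. Fold changes are edgeR estimates, and calls were made where the Benjamini-Hochberg adjusted p was under 0.05. Each standard error (SE) is the size of the log2 fold change divided by the square root of the test's F statistic. The test takes the 8 pre-transplant libraries as independent although they came from 4 donors. Its error may thus be too small for this comparison. Of all genes tested, 27.4% were called between the stages, 14.6% lower and 12.9% higher. The median log2 fold change was -0.49 over the 10 members and -0.01 over all genes tested. In these bulk samples, fewer cells expressing a gene and less RNA per cell cannot be told apart.

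**Figure D1:**
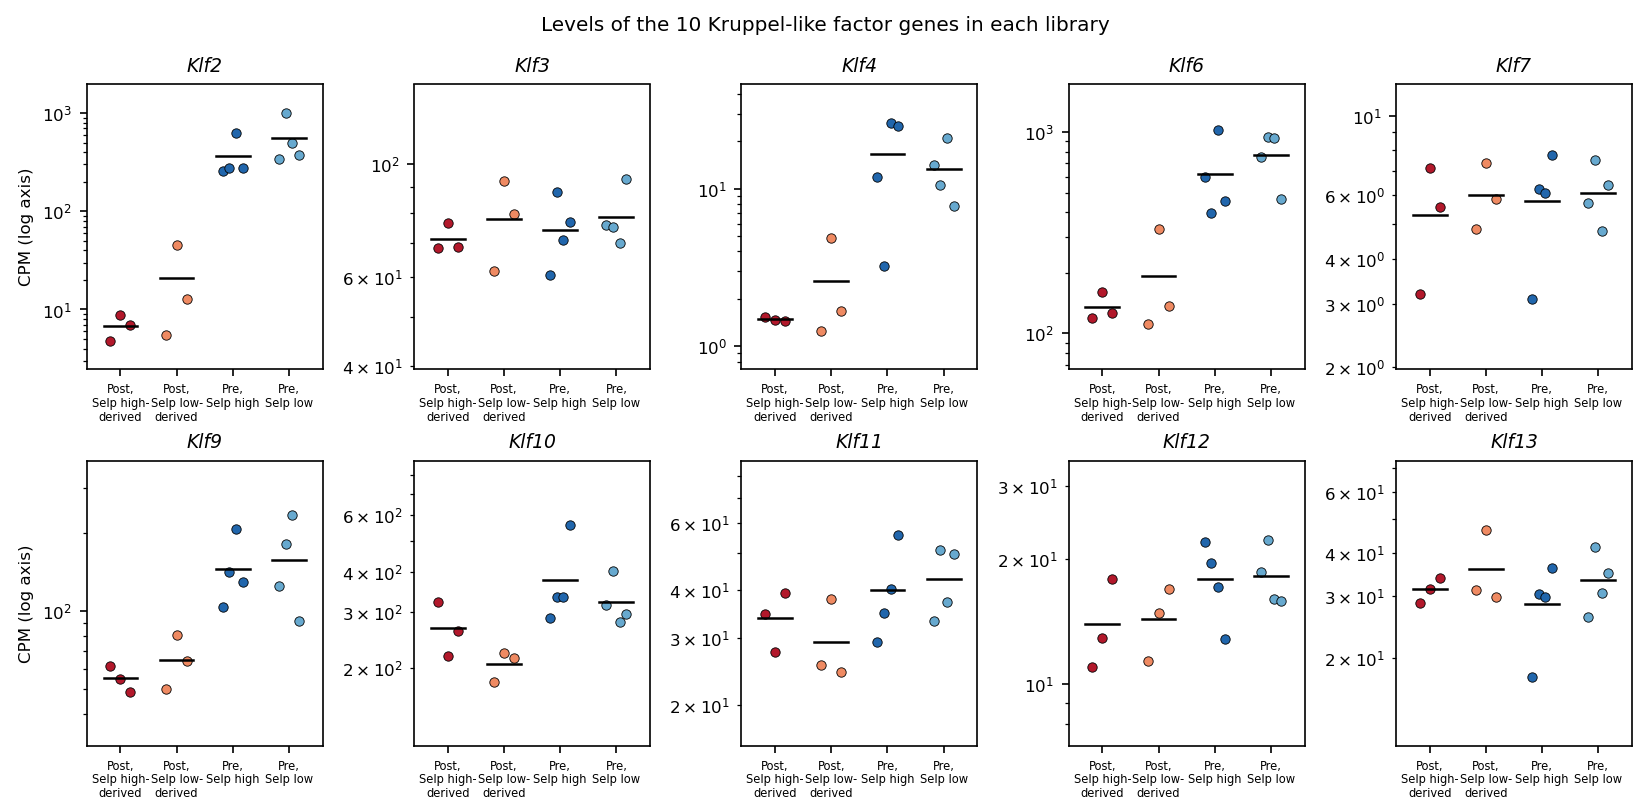
Each panel plots the CPM of one gene (log axis, scaled for each gene) in each of the 14 libraries, as points, with a line at the group mean. Post are post-transplant and Pre pre-transplant libraries, with 3, 3, 4 and 4 libraries from left to right; for Klf2 all 6 post-transplant libraries lie at 45.2 CPM or below and all 8 pre-transplant libraries at 256 CPM or above.

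Among the activators, Klf2 (chr8:72319033-72321656, plus strand, GRCm38) had 4.80, 8.74 and 6.97 CPM in Selp high-derived and 5.46, 45.2 and 12.7 CPM in Selp low-derived libraries, against 256, 279, 635 and 278 CPM in Selp high and 338, 999.7, 499.5 and 375 CPM in Selp low libraries before transplantation. No post-transplant library reached the level of any pre-transplant library; groups that kept apart in this way, with the post-transplant libraries below, were seen for 5.47% of genes. Klf2 fell by 5.22 on the log2 scale (SE 0.50, adjusted p = 9.654e-06), or 37.2-fold, and was the 95th gene by p and the 60th by size of decrease among the 16878. The depth behind these levels was 135 to 1252 reads per post-transplant library and 6684 to 37361 per pre-transplant library.

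Klf4 (chr4:55527143-55532466, minus strand) was a minor transcript in these cells. It had 1.53, 1.47 and 1.45 CPM in Selp high-derived and 1.24, 4.88 and 1.67 CPM in Selp low-derived libraries, against 11.8, 3.25, 26.3 and 24.9 CPM in Selp high and 14.1, 10.6, 20.9 and 7.79 CPM in Selp low libraries. The stages overlapped, because Selp low-derived replicate 2 was above Selp high replicate 2. Klf4 fell by 2.92 on the log2 scale (SE 0.47, adjusted p = 0.0004065), a 7.55-fold difference that rests on 34 to 135 reads in each post-transplant library.

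Klf6 (chr13:5861482-5870394, plus strand), which is induced by tissue injury and takes part in blood development in mouse embryos, was abundant at both stages. It had 119, 159.9 and 126 CPM in Selp high-derived and 111, 328 and 136 CPM in Selp low-derived libraries, against 601, 397, 1027 and 456 CPM in Selp high and 749, 947, 929 and 467 CPM in Selp low libraries. The stages did not overlap, and Selp low-derived replicate 2 came closest to the pre-transplant range. Klf6 fell by 2.10 on the log2 scale (SE 0.29, adjusted p = 0.0001196), or 4.30-fold.

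Klf7 (chr1:64029447-64122282, minus strand), a widely expressed factor best known in neurons, had 3.20 to 7.37 CPM after and 3.10 to 7.76 CPM before transplantation, and its log2 fold change was -0.07 (SE 0.23, adjusted p = 0.8437). Exons of Klf7 share 3196 bases with the antisense gene Gm26649, and Gm26649 had 0 reads in all libraries together. Counts were made without regard to strand, so reads in such shared stretches cannot be assigned to either gene. The level of Klf7 is therefore uncertain and, if anything, too low.

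The CtBP-binding repressors did not pass the test. Klf3, which takes part in red cell and B cell maturation in mice, had 61.5 to 92.6 CPM after and 60.4 to 93.5 CPM before transplantation, with a log2 fold change of -0.03 (SE 0.11, adjusted p = 0.8477). This was the narrowest SE among the 10 members. Klf12, known as a repressor of the gene for the factor AP-2 alpha, had 10.99 to 17.8 CPM after and 12.8 to 22.1 CPM before, with a log2 fold change of -0.35 (SE 0.16, adjusted p = 0.1224). Klf3 shares 404 exon bases with Gm20033 on the other strand, which had 119 reads over all libraries against 29360 for Klf3.

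The Sin3a-binding members differed among themselves. Klf9 (chr19:23141226-23168134, plus strand), a target of thyroid hormone and glucocorticoids, had 61.2, 54.9 and 48.9 CPM in Selp high-derived and 50.1, 80.7 and 64.2 CPM in Selp low-derived libraries, against 104, 142, 208.5 and 130.1 CPM in Selp high and 125, 182, 235 and 92.1 CPM in Selp low libraries. Its stages did not overlap, and it fell by 1.35 on the log2 scale (SE 0.21, adjusted p = 0.000337), or 2.55-fold.

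Klf10 (chr15:38291463-38300706, minus strand), an early target of TGF-beta, had 321, 218 and 260.4 CPM in Selp high-derived and 181, 223 and 215 CPM in Selp low-derived libraries, against 286, 334, 334 and 559 CPM in Selp high and 315, 402, 279 and 295 CPM in Selp low libraries. Selp high-derived replicate 1 lay inside the pre-transplant range. Klf10 fell by 0.58 on the log2 scale (SE 0.15, adjusted p = 0.01107), a 1.49-fold difference.

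Klf11, the closest relative of Klf10, had 24.4 to 39.5 CPM after and 29.3 to 55.9 CPM before transplantation and a log2 fold change of -0.40 (SE 0.17) that missed the threshold (adjusted p = 0.09407). Klf13, which activates Ccl5 in T lymphocytes, had 28.7 to 46.6 CPM after and 17.6 to 41.7 CPM before, and was the one member with a positive log2 fold change, 0.12 (SE 0.16, adjusted p = 0.6203). Ccl5 itself was at 0.53 to 1.77 CPM after and 0.14 to 4.36 CPM before transplantation.

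With the 4 libraries that stood apart left out, the same 5 members were called: the log2 fold change was -5.86 for Klf2, -3.31 for Klf4, -2.53 for Klf6, -1.60 for Klf9 and -0.58 for Klf10, with adjusted p from 1.793e-05 for Klf2 to 0.004436 for Klf10. Of the mouse 4 libraries, which had the highest neutrophil marker sums, the Selp high one was the highest of its group for 4 of the 10 members and the Selp low one for 1. Selp low-derived replicate 2 was the highest library of its group for 9 of the 10 members. With that library left out, Klf2 had a log2 fold change of -5.83, and Klf11 was called as well (log2 fold change -0.51, adjusted p = 0.03897). Without both mouse 4 libraries Klf12 was called (log2 fold change -0.45, adjusted p = 0.0464).

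Post- against pre-transplant libraries were next compared within each P-selectin input. In Selp high-derived cells Klf2, Klf4, Klf6 and Klf9 were lower than in Selp high cells, by 5.73 (SE 0.73), 3.48 (SE 0.68), 2.20 (SE 0.41) and 1.41 (SE 0.30) on the log2 scale, with adjusted p of 0.0002349, 0.003478, 0.002499 and 0.005774. In Selp low-derived cells the same 4 were lower than in Selp low cells, by 4.71 (SE 0.69), 2.36 (SE 0.64), 2.01 (SE 0.40) and 1.29 (SE 0.30), with adjusted p of 0.001104, 0.02852, 0.006564 and 0.01347. With Selp low-derived replicate 2 left out, the low-input values were -5.94 for Klf2, -3.19 for Klf4, -2.65 for Klf6 and -1.47 for Klf9, and all 4 were still called. These 4 of 10 stand against 7.62% of all genes called lower for the high input and 6.46% for the low input, with 15.2% and 11.5% called in either direction. Within each input, the post-transplant libraries of these 4 genes were all below the pre-transplant ones, which held for 14.7% of genes in the high and 11.9% in the low input. Klf10, which was not called, kept apart in the same way in the low input but overlapped in the high input.

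Klf10 missed the threshold in both inputs, with log2 fold changes of -0.51 (SE 0.21, adjusted p = 0.1297) in the high and -0.65 (SE 0.21, adjusted p = 0.06502) in the low input. With the donor mouse as a replicate block, Klf10 was called in the low input (adjusted p = 0.03731). There 3086 genes were called in place of 1936. This block pairs no library across the stages and takes spread between mice out of the error. Added calls under it are therefore not firmer evidence. In the high input the same 4 members were called under each of the 24 alternatives tried. In the low input Klf4 lost its call without Selp low-derived replicate 1 (adjusted p = 0.1225) or 3 (0.1022) or without Selp low replicate 1 (0.0537) or 3 (0.07526), and Klf9 lost its call without Selp low-derived replicate 1 (0.07561). With the 4 libraries that stood apart left out, 5 members were called in the low input, Klf10 among them (log2 fold change -0.75, adjusted p = 0.01436), and 4 in the high input.

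**Figure D2:**
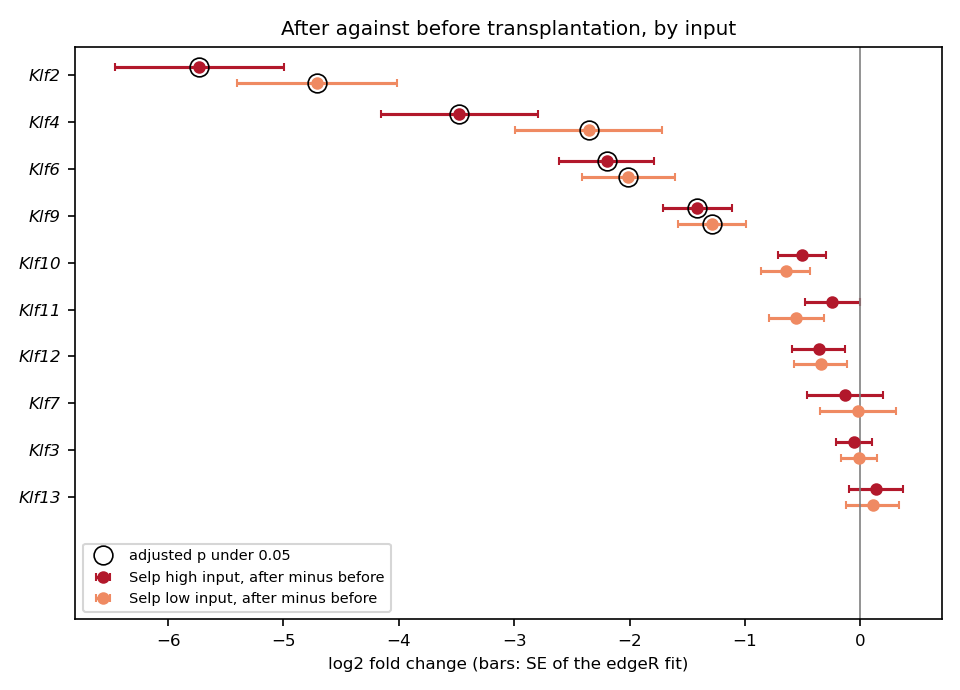
Log2 fold changes of the 10 genes after against before transplantation (x axis) for the Selp high input (dark red) and the Selp low input (orange). Bars give the SE derived from the edgeR F statistic, and open circles mark an adjusted p under 0.05. Klf2, Klf4, Klf6 and Klf9 are circled in both inputs, and the bars of the inputs overlap for each gene.

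The difference between the inputs was itself tested and was not called for any member. For Klf2 the difference of the log2 fold changes, high minus low input, was -1.02 (SE 0.82, adjusted p = 0.8837), and for Klf4 it was -1.12 (SE 0.85, adjusted p = 0.8824). Klf2 and Klf4 were highest after transplantation in Selp low-derived replicate 2, and without this library the difference was 0.21 for Klf2 and -0.29 for Klf4. With the 4 libraries that stood apart left out, the difference was 0.45 for Klf2 and 0.14 for Klf4. Across all genes 0% (0 of 16878) were called in this test by edgeR, 874 had an unadjusted p under 0.05 (5.18%), and DESeq2 called 11, none of them a member.

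Selp high cells were also compared with Selp low cells at each stage, the comparison that the sort was made for. No member was called at either stage, where 0% of all genes were called by edgeR. Before transplantation 863 genes had an unadjusted p under 0.05 (5.11%) with no member among them, and DESeq2 called 11 genes. After transplantation 765 genes did (4.53%), Klf2 among them, and DESeq2 called 25 genes, none of them a member. These tests did not pair libraries by mouse. With the inferred donor mouse as a replicate block, which pairs Selp high with Selp low libraries before transplantation, edgeR called 0 genes there.

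Klf2 had a log2 fold change, Selp high over Selp low, of -1.63 (SE 0.64, unadjusted p from edgeR 0.02374, adjusted p = 0.9795) after and -0.61 (SE 0.52, adjusted p = 0.9633) before transplantation. The value after transplantation was -0.40 without Selp low-derived replicate 2. Before transplantation, same-numbered Selp high and Selp low libraries were compared as mice 1 to 4, an inferred pairing. The difference in log2 CPM of Klf2 (high minus low) was -0.40, -1.84, 0.35 and -0.43 in turn. By this pairing, 1 of 4 mice had more Klf2 in its Selp high cells. Klf4 gave -0.26, -1.68, 0.33 and 1.67 in the same mice, a spread wider than any of the other members.

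Klf6 had log2 fold changes of -0.51 (SE 0.41) after and -0.32 (SE 0.35) before transplantation, and Klf9 of -0.24 (SE 0.31) and -0.12 (SE 0.26). Klf10 had positive values at both stages, 0.37 (SE 0.22) after and 0.23 (SE 0.19) before. Without both mouse 4 libraries the value of Klf10 before transplantation was -0.06. In mouse 2, whose Selp low library was the highest of its group for 7 of the 10 members, 9 of the 10 members were lower in Selp high cells; this library was also the deepest, with 38216775 reads.

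**Figure D3:**
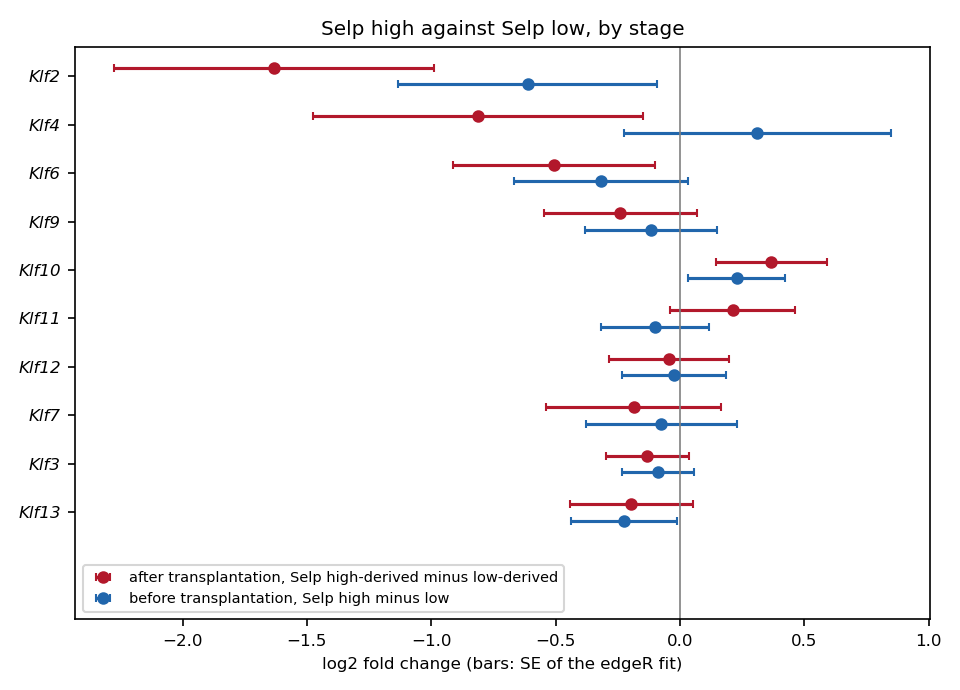
Log2 fold changes of Selp high against Selp low cells (x axis) after (red) and before (blue) transplantation for the 10 genes. Bars give the SE derived from the edgeR F statistic. No value passed an adjusted p under 0.05, and the value farthest from 0 is Klf2 after transplantation at -1.63.

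Because CPM does not account for transcript length, the members were ranked by CPM per kb of exon. After transplantation Klf10 led with 56.6 ± 11.6 CPM per kb (SD, n = 6), followed by Klf6 at 37.2 ± 18.8, Klf9 at 12.5 ± 2.4, Klf2 at 7.57 ± 8.43, Klf11 at 7.27 ± 1.51 and Klf3 at 6.63 ± 0.97. Before transplantation Klf2 led with 248 ± 138 CPM per kb (SD, n = 8 libraries from 4 donors). It was followed by Klf6 at 159 ± 57, Klf10 at 83.9 ± 22.2, Klf9 at 31.6 ± 10.6, Klf11 at 9.56 ± 2.2 and Klf3 at 6.78 ± 0.93. The place of Klf2 after transplantation depended on 1 library. Without Selp low-derived replicate 2, an alternative chosen after seeing the data, Klf2 was the sixth at 4.18 ± 1.71 CPM per kb (SD, n = 5), after Klf11 at 6.98 ± 1.49 and Klf3 at 6.30 ± 0.64.

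The remaining members were low at both stages. The exon length of Klf7, 8131 bases, includes the 3196 shared with Gm26649, so its value per kb is, if anything, too low. Klf13, Klf12, Klf7 and Klf4 had 4.47 ± 0.87, 2.02 ± 0.41, 0.70 ± 0.19 and 0.67 ± 0.46 CPM per kb after and 4.11 ± 0.96, 2.58 ± 0.46, 0.73 ± 0.18 and 4.91 ± 2.72 CPM per kb before transplantation. After transplantation the ranges of neighbours in the order overlapped except between Klf6 and Klf9, Klf13 and Klf12, and Klf12 and Klf7. Before it they overlapped except between Klf10 and Klf9, Klf9 and Klf11, and Klf12 and Klf7.

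The make-up of the family's mRNA per length was not alike at both stages. The 10 members summed to 100.2 to 197 CPM per kb after and 376 to 923 CPM per kb before transplantation. Klf2 held 1.86 to 12.4% of that sum after and 33.4 to 58.7% before, and Klf10 held 27.1 to 55.0% after and 10.4 to 29.7% before. The share of Klf6 overlapped, at 19.4 to 37.9% after and 23.0 to 35.5% before. Klf2 was the leading member in 8 of 8 pre-transplant libraries; Klf10 led in 5 of 6 post-transplant libraries, and Klf6 in Selp low-derived replicate 2.

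**Figure D4:**
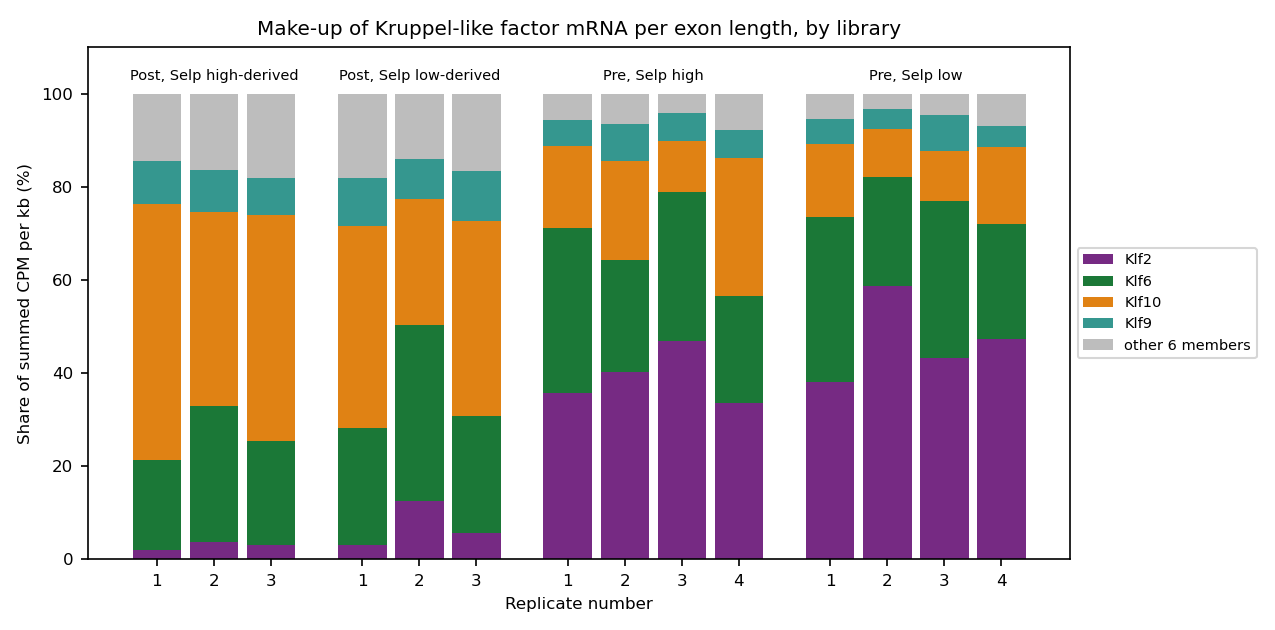
Stacked bars give the share of the summed CPM per kb of the 10 members (y axis, %) held by Klf2, Klf6, Klf10, Klf9 and the other 6 members in each library, with replicate numbers on the x axis under the group names. Klf2 takes 1.86 to 12.4% of the bar in post-transplant libraries (left) and 33.4 to 58.7% in pre-transplant libraries (right).

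The other family genes were examined for comparison, from a list of 16 Klf and Sp genes of which 10 were tested. None was called lower and 1, Sp1, was higher after transplantation, against 14.6% lower and 12.9% higher over all genes. Sp1, a general activator at GC boxes, had 46.7 to 70.9 CPM after and 41.9 to 52.7 CPM before, with a log2 fold change of 0.26 (SE 0.08, adjusted p = 0.02246). It was called in the low input (0.50, SE 0.11, adjusted p = 0.01105), and its value in the high input was 0.03 (SE 0.11). The call of Sp1 over both inputs was lost without Selp high-derived replicate 2 (adjusted p = 0.05212) or 3 (0.07517), without Selp low-derived replicate 2 and Selp high-derived replicate 1 together (0.08071), and with no expression filter (0.07927). Sp3 had the highest CPM of the list, 87.6 to 154 after and 90.1 to 134 before.

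Klf15, a glucocorticoid target in muscle and liver, had 1.53 to 4.37 CPM after and 1.46 to 11.6 CPM before (log2 fold change -1.01, SE 0.43, adjusted p = 0.09763). Klf15 was called lower (log2 fold change -0.74, adjusted p = 0.03142) with the donor mouse as a replicate block, which pairs nothing across the stages. It was also called lower by DESeq2 (adjusted p = 0.04224) and, in edgeR, without Selp low replicate 2 (0.0451) or Selp high replicate 2 (0.03259). Klf5, which is abundant in gut epithelium, had 1.92 to 5.53 CPM after and 3.05 to 8.36 CPM before (-0.57, SE 0.29, adjusted p = 0.1552). Klf1, the erythroid factor, ran from 5.83 to 26.2 CPM after and from 2.90 to 50.3 CPM before. Klf8 (7.58 to 18.7 CPM after, 8.68 to 18.03 before), Klf16 (12.3 to 20.4 after, 12.3 to 19.9 before), Sp2 (31.5 to 44.2 after, 26.8 to 38.7 before) and Sp4 (13.4 to 19.1 after, 14.1 to 22.0 before) lay in overlapping ranges. Sp9 was at 0.65 CPM or below in every library. Klf14, Sp5 and Sp7 were too low to be tested, with at most 0.14, 0.04 and 0.31 CPM in any library, and Klf17, Sp6 and Sp8 had no reads.

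Cofactors of the family were compared next. Of 16 genes, 4 were higher and 2 lower after transplantation, against 12.9% higher and 14.6% lower over all genes. Their median log2 fold change was 0.17. Crebbp and Ep300, the acetyltransferases that activating members use, rose by 0.74 (SE 0.13, adjusted p = 0.00102) and 0.58 (SE 0.16, adjusted p = 0.01381) on the log2 scale. Crebbp had 68.2 to 107 CPM after and 37.6 to 73.5 CPM before. Fbxw7, the ubiquitin ligase subunit that targets Klf2 for degradation, rose by 0.51 (SE 0.11, adjusted p = 0.003578), with 24.9 to 30.5 CPM after and 14.6 to 21.5 CPM before, so that its stages did not overlap. Sin3a rose and Sin3b fell, by 0.28 and 0.34 on the log2 scale, and Btrc fell by 0.30. Ctbp1, the most abundant gene of the list, was at 328 to 431 CPM after and 319 to 370.4 CPM before (log2 fold change 0.16, adjusted p = 0.09701). It was called higher in edgeR without Selp low-derived replicate 2 and Selp high-derived replicate 1 together (0.20, adjusted p = 0.04997). Without all 4 libraries that stood apart it was called as well (0.23, adjusted p = 0.03106).

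The ERK5 and MEF2 pathway is known to switch on Klf2 and Klf4 in endothelium and is held back there by the Heg1 and CCM complex. Of 14 genes, 1 was higher and 2 were lower after transplantation, against 12.9% higher and 14.6% lower over all genes. Mapk7, which encodes ERK5, rose by 0.39 (SE 0.09, adjusted p = 0.006199), with 34.6 to 44.0 CPM after and 22.3 to 36.1 CPM before. Heg1, the membrane receptor that anchors the complex, fell by 0.33 (SE 0.11, adjusted p = 0.03597) and Map3k3, a kinase upstream of ERK5, fell by 0.42 (SE 0.14, adjusted p = 0.03977). Neither call held under every alternative: leaving out 1 library at a time ended the call of Heg1 for 9 and that of Map3k3 for 9 of the 14 libraries, with adjusted p of at most 0.07567 and 0.08398. Mef2c, the most abundant gene of the list, had 293 to 494 CPM after and 330 to 449 CPM before (log2 fold change -0.07, adjusted p = 0.635).

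Genes reported as targets of Klf2 or Klf4 in other cell types made the next list. Of 16 tested, 8 were lower and 2 higher after transplantation, against 14.6% lower and 12.9% higher over all genes. Their median log2 fold change was -0.29. S1pr1, the sphingosine phosphate receptor that Klf2 is known to activate in T lymphocytes, had 62.3, 57.6 and 57.6 CPM in Selp high-derived and 44.4, 60.5 and 47.2 CPM in Selp low-derived libraries, against 127 to 140.0 CPM in Selp high and 104 to 137 CPM in Selp low libraries before transplantation. It fell by 1.21 on the log2 scale (SE 0.09, adjusted p = 1.127e-06). Cdkn1a, a cell cycle inhibitor, had 5.05 to 14.2 CPM after and 21.3 to 149 CPM before (log2 fold change -3.06, SE 0.39, adjusted p = 7.438e-05).

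Socs3, the inhibitor of cytokine signalling, had 6.15 to 42.2 CPM after and 187 to 637 CPM before (-4.44, SE 0.45, adjusted p = 1.188e-05). Txnip, the most abundant gene of the list, fell by 0.55 (SE 0.18, adjusted p = 0.03493), a call that was lost for 8 of the 14 libraries when each was left out in turn. Cdkn1c, Thbd, Nfe2l2 and Dusp5 were the other 4 called lower, while Ccnd1, a cyclin that promotes entry into S phase, rose by 1.04 (SE 0.24) and Cdkn1b, a cell cycle inhibitor, by 0.46 (SE 0.16). Several of these genes answer to many other factors, and whether any of them followed a Klf was not tested.

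The TGF-beta list, chosen for Klf10 and Klf11, had 3 of 12 genes lower and 0 higher after transplantation. Over all genes 14.6% were lower and 12.9% higher. Tgfb3, a ligand, fell by 1.05 (SE 0.16, adjusted p = 0.0003435), Smad7, the inhibitory Smad that Klf10 is known to repress, fell by 1.30 (SE 0.28, adjusted p = 0.003117), and Skil, another inhibitor, fell by 1.64 (SE 0.40, adjusted p = 0.008001). Smad4, the common Smad, was at 182 to 225 CPM after and 192 to 239.6 CPM before (log2 fold change -0.04, adjusted p = 0.6908).

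The glucocorticoid and circadian list, chosen for Klf9 and Klf13, had 8 of 19 genes lower and 0 higher. Over all genes 14.6% were lower and 12.9% higher. The glucocorticoid-induced genes Tsc22d3 and Sgk1 fell by 0.62 (SE 0.07, adjusted p = 4.229e-05) and 1.49 (SE 0.17, adjusted p = 3.159e-05), and the clock repressor Bhlhe40 fell by 2.66 (SE 0.37, adjusted p = 0.0001317). The glucocorticoid receptor gene Nr3c1 had a log2 fold change of 0.04 (adjusted p = 0.8182) and its target Fkbp5 of 0.15 (adjusted p = 0.4705). The other 5 genes called lower were Per1, Hlf, Nr1d1, Nr1d2 and Cry2.

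Immediate early genes, which cells switch on quickly after many stimuli, were for the most part lower in the same libraries. Of 24, 22 were lower and 1 was higher after transplantation, against 14.6% and 12.9% of all genes, and their median log2 fold change was -3.26. Egr1, the most abundant by mean log2 CPM, had 78.6 to 433 CPM after and 1923 to 4552 CPM before (log2 fold change -4.38, SE 0.39, adjusted p = 5.083e-06). Ier2 fell by 2.81 (SE 0.25, adjusted p = 4.585e-06) and Csrnp1 by 2.94 (SE 0.28, adjusted p = 8.284e-06). Myc was the gene called higher (0.33, SE 0.10, adjusted p = 0.02516), and Srf was not called. For Egr1, Ier2 and Socs3, Selp low-derived replicate 2 was the highest of the 6 post-transplant libraries. The same library was the highest for Klf2, Klf4, Klf6 and Klf9, and also for Klf3, Klf7 and Klf13, which were not called between the stages. What part the immediate early genes have in the values of the Klf genes was not tested.

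**Figure D5:**
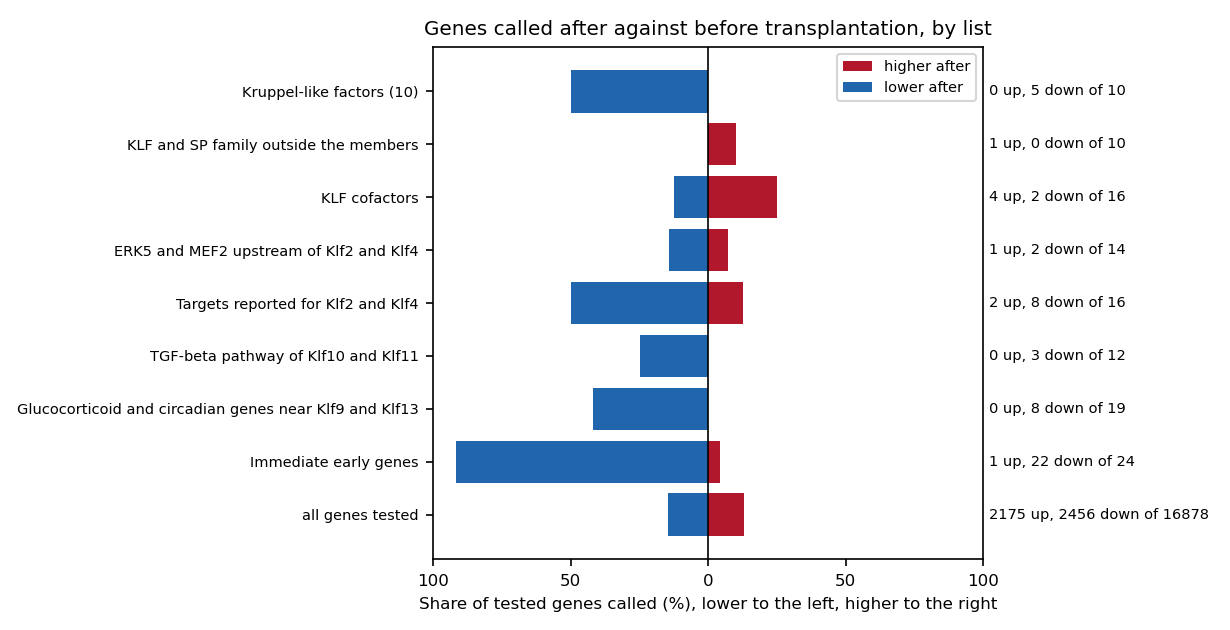
Bars give the share of the tested genes of each list called lower (blue, to the left) or higher (red, to the right) after against before transplantation, with the numbers beside them. The immediate early genes have 22 of 24 called lower, the Kruppel-like factors 5 of 10, and all genes tested 2456 of 16878.

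Markers of endothelium, where Klf2 and Klf4 are abundant, also differed between the stages. The 8 markers summed to 450.2 to 542 CPM after and 552 to 798 CPM before transplantation, and 3 of the 7 tested were called lower: Cldn5 (0.66 to 5.62 CPM after, 37.9 to 109 CPM before), Kdr (10.1 to 25.5 after, 46.7 to 104 before) and Plvap (1.72 to 4.63 after, 5.70 to 31.0 before). Cdh5, the cadherin that defines endothelium, was at or near 0, with at most 0.17 CPM after and 1.22 CPM before. Pecam1, Tie1 and Emcn, which LT-HSCs also express, had log2 fold changes of -0.18, -0.15 and 0.20 and were not called. Of the sort genes, Selp fell by 1.15 (SE 0.10, adjusted p = 3.542e-06), Slamf1, which encodes CD150, by 1.05 (SE 0.10, adjusted p = 6.868e-06) and Ly6a, which encodes Sca-1, by 0.68 (SE 0.24, adjusted p = 0.04643; lost for 11 of the 14 libraries when each was left out). All 10 neutrophil markers had negative log2 fold changes between the stages (median -1.25), but none was called or had an unadjusted p under 0.05 in edgeR. In the high input the median was -2.25, with 3 of 10 at an unadjusted p under 0.05. In the low input 7 were lower and 3 higher, with a median of -0.23. Over all genes tested, 14.6% were called lower and 12.9% higher between the stages, the background for each marker count.

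Lymphoid and platelet markers were examined as well, since Klf2 is abundant in T lymphocytes. The 7 T and NK cell markers summed to 86.2 to 126 CPM after and 139.5 to 313 CPM before transplantation, without overlap. Of the 6 tested, Klrb1c, an NK cell receptor gene, was lower (12.3 to 39.0 CPM after, 115.7 to 303 CPM before, log2 fold change -2.92, adjusted p = 1.02e-05), and Nkg7, a granule protein gene, was higher (log2 fold change 1.76, adjusted p = 0.0007859). Cd3e, which defines T lymphocytes, was at most 0.69 CPM after and 1.58 CPM before and was not called. Of the 7 platelet and megakaryocyte markers 3 were higher and 2 lower: Pf4, Ppbp and Gp1ba had log2 fold changes of 2.32, 2.51 and 0.80, and Clec1b and Gp9 of -2.79 and -0.53. Their sum overlapped between the stages, at 249.9 to 354 CPM after and 216 to 393 CPM before. By edgeR 0 of 6 B cell, 0 of 7 monocyte and macrophage and 0 of 8 erythroid markers were called (2, 0 and 1 at an unadjusted p under 0.05), and 1 of 7 mast cell, basophil and eosinophil markers, Gata2, was lower by 0.38. The part of these markers in the values of the Klf genes was not tested.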

How the data were processed

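RNA-seq counts of 14 libraries were used. Per the labels' protocols, RNA of 5000 sorted cells was made into cDNA with a low-input kit and libraries were tagmented. The submitters' processing notes name STAR 2.7.0d, FastQC 0.11.9, Picard 2.23.0 and GRCm38. The deposited values are whole read counts per gene for 55450 identifiers, all matched to GENCODE release 21 for mouse. The unstranded count column of the authors' files was used: the 2 strand columns were in a ratio of 0.989 to 0.999 in each library. Unmapped, multimapping, unassigned and ambiguous reads (3.35 to 5.06%, 9.93 to 13.4%, 3.37 to 5.13% and 4.20 to 4.79%) stayed out of library sizes and tests.

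The main test was the quasi-likelihood test of edgeR 4.0.16 under R 4.3.3, with TMM scaling, edgeR's expression filter (minimum count 10), 1 mean for each of the 4 groups, 10 residual degrees of freedom and Benjamini-Hochberg adjustment over 16878 genes, and calls were made under 0.05. Post against pre is the mean of both post groups minus the mean of both pre groups. No term was fitted for the donor mouse, so the 8 pre-transplant libraries from 4 donors counted as independent. CPM are edgeR's, after TMM scaling; log2 CPM carry a prior count of 2. CPM per kb divides by the union exon length in GENCODE. The fit was tested on simulated data with 200 changed genes. Each simulated library was drawn independently, so this test cannot show how shared donors affect the error. DESeq2 1.42.0, limma 3.58.1 (voom), other scaling, no filter, a replicate block, and leaving out libraries were tried as alternatives.

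Deviations of same-numbered pre-transplant libraries from their group means correlated with r from 0.289 to 0.527 over genes, and of others from -0.401 to 0.049. Pre-transplant numbers were therefore taken as mice, although the labels do not say what the numbers stand for. Post-transplant numbers (r from -0.051 to 0.025) were not taken as pairs. All pairs of libraries in a group differed by more than sampling noise. The labels do not say how many recipients the post-transplant samples represent, so p-values measure the spread between these samples, which may be technical in part.

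Members and lists were chosen with earlier results of these data known. The text names all members, the sort genes, every detected Klf or Sp gene and, of each list, up to 3 genes with the smallest p for post against pre and the 1 with the highest mean log2 CPM; other list genes (Sin3a, Sin3b, Btrc, Cdkn1b, Cdkn1c, Ccnd1, Thbd, Nfe2l2, Dusp5, Ccl5, Nr3c1, Fkbp5, Per1, Hlf, Nr1d1, Nr1d2, Cry2, Myc, Srf) and the marker genes were named after their values were seen. Promoter sequences are from RefSeq (GRCm38.p6).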

Additional observations from a re-analysis of the deposited data

Results flagged for a closer look

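Of the 20 groups of 4 pre-transplant libraries examined (10 genes in Selp high and Selp low), 1 held a library far from the others. Klf2 in Selp high replicate 3 was at 635 CPM, against 256 to 279 CPM in the other Selp high libraries. Chance flags about 1 in 20 groups. The same library was the highest of its group for 4 of the 10 genes.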

How the results depend on the processing

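The 5 members called between the stages were called under each of the 23 alternatives run for that comparison, and with each library left out in turn 5 to 6 were called. The high input gave 4 under all 24 alternatives, and the low input 2 to 5 when 1 library was left out. In the low input, limma voom ended the call of Klf4 (adjusted p = 0.06769). Klf4 and Klf9 losses without 1 library are given with the results; Klf10 was called there in 6 alternatives. Of 825 values of members under 24 alternatives, 773 kept their direction and side of the threshold, 9 passed it, 6 missed it and 37 changed sign, none of these 37 for a called value.

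The replicate block by mouse pairs nothing between the stages and takes spread between mice out of the error. Its calls between stages are thus less strict. It gave 3086 genes called in the low input, against 1936 without it, and 1 gene after transplantation for Selp high against Selp low. With post-transplant numbers also blocked, which do not pair, these were 3023 and 2, Klf12 passed between the stages (adjusted p = 0.02856) and the difference between inputs for Klf6 was 0.014. Apart from Klf10, Klf12, Klf15 and Cd48, the block changed no call of a named gene in the values run. Leaving out both mouse 4 libraries gave 2999 genes in the low input and 1 after transplantation for Selp high against low. DESeq2 called 11 genes before and 25 after transplantation for Selp high against low and 11 for the difference between inputs, and no expression filter gave 1 before transplantation. With each library left out, the low input had 803 to 2723 genes called (fewest without Selp low-derived replicate 1), the high input 1423 to 2827 (fewest without Selp high-derived replicate 3), and Selp high against low before transplantation 0 to 2.

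No value that changed sign had been called. Without both mouse 4 libraries, post against pre was 0.022 for Klf3, 0.022 for Klf7 and 0.041 for Kit, Selp high against low before transplantation -0.14 for Klf4 and -0.062 for Klf10, and the difference between inputs 0.012 for Klf9. Without Selp low-derived replicate 2 and Selp high-derived replicate 1, Selp high against low after transplantation was 0.20 for Klf6, and the difference between inputs 0.40 for Klf2 and 0.52 for Klf6. Without all 4 libraries, an alternative added after seeing the data, post against pre was 0.068 for Klf7, 0.017 for Smad4 and 0.093 for Kit. Selp high against low was then -0.14 for Klf4 and -0.062 for Klf10 before transplantation and 0.0059 for Klf4 and 0.21 for Klf6 after it. The difference between inputs was 0.45 for Klf2, 0.14 for Klf4, 0.59 for Klf6 and 0.12 for Klf9. Limma voom gave 0.0088 for Klf6 in that difference. With 1 library left out, post against pre ran from -0.11 to 0.035 for Klf3, -0.22 to 0.045 for Klf7 and -0.099 to 0.035 for Kit. Selp high against low before transplantation ran from -0.0030 to 0.65 for Klf4, -0.34 to 0.14 for Klf9 and -0.021 to 0.35 for Klf10, and after it from -1.14 to 0.026 for Klf4 and -0.78 to 0.13 for Klf6. The difference between inputs ran from -1.47 to 0.21 for Klf2, -0.46 to 0.45 for Klf6, -0.38 to 0.096 for Klf9 and -0.031 to 0.39 for Klf10. The cause was not tested. Immediate early genes called lower numbered 21 to 22 and Klf2 or Klf4 targets called lower 7 to 8 under the alternatives run, while ERK5 and MEF2 genes called lower numbered 0 to 3 and cofactors called lower 0 to 2. Depth limits Klf4, with 34 to 135 reads in a post-transplant library, and Klf7, with 81 to 281 reads in any.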
